A study of Rattus norvegicus with 17 samples.

Results

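The chromatin of immature oligodendrocytes (iOL) was described by setting the peak lists of 3 histone marks against each other and asking at which combinations RNA polymerase II (RNAPII) was called. All peaks of the H3K27Ac, H3K4me3, H3K9me3 and RNAPII libraries of iOL were taken, 34308 of the 189320 peaks in the 17 lists of the series. They comprised 21589 H3K27Ac, 10467 H3K4me3, 827 H3K9me3 and 1425 RNAPII peaks. The series mapped 6 targets by chromatin immunoprecipitation and sequencing (ChIP-seq) in primary wild-type cells from the cortices of Sprague-Dawley rat pups at postnatal day 2, with 1 library for each target and stage. The iOL samples carry the label of T3 treatment, and the differentiation medium held T3 (triiodothyronine) at 15 nM and ciliary neurotrophic factor at 10 ng/ml. Before that the isolated cells were grown with PDGF-AA at 10 ng/ml and bFGF at 20 ng/ml. Oligodendrocyte precursors (OPC) carry the label of mitogen treatment, and mature oligodendrocytes (mOL) again that of T3. The lists hold no expression values, so the iOL label could not be checked against marker genes.

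H3K27Ac is an acetylation laid down by CBP and p300 at active promoters and enhancers. H3K4me3 is a methylation set by SET1 and MLL complexes around transcription starts, above all at CpG-rich promoters. H3K9me3 is bound by HP1 proteins and marks heterochromatin, repeats and silenced genes. RNAPII is loaded at promoters and often pauses just downstream of the start, and polymerase is also found at many enhancers. In oligodendrocytes these marks have been used to find promoters and enhancers of the genes that turn precursors into myelin-forming cells.

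The values below are shares of peaks, with overlap meaning at least 1 bp in common. Brackets give exact Clopper-Pearson 95% intervals, which count each peak as independent and take in counting error only. With 1 library of each target no difference was tested between conditions. Positions are in rat build rn4 and come without scores or reads. Depth is therefore unknown, and a longer list can come from deeper sequencing or a looser threshold. Each list comes from its own library of many cells, so marks on the same chromatin fibre and marks in different cells cannot be told apart where 2 lists meet. No gene is named at a position, since no gene table of build rn4 was used here.

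In iOL most H3K4me3 was acetylated, whereas most H3K27Ac lay away from H3K4me3. An H3K27Ac peak met 8260 of 10467 H3K4me3 peaks (78.9%, 78.1 to 79.7), and an H3K4me3 peak met 8563 of 21589 H3K27Ac peaks (39.7%, 39.0 to 40.3). The marks had 7.23 Mb in common, 69.1% of the 10.5 Mb under H3K4me3 and 33.3% of the 21.7 Mb under H3K27Ac. H3K9me3 seldom met either mark. It met H3K27Ac at 5 of 827 peaks (0.605%, 0.197 to 1.41) over 1.76 kb, and H3K4me3 at 3 peaks (0.363%, 0.0749 to 1.06) over 1.83 kb. All 3 marks met at 1 H3K9me3 peak, where 38 bp lay under all of them. How often randomly placed peaks would meet was not counted, so these low shares do not show that H3K9me3 avoids the other marks.

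Joining overlapping peaks of the 3 marks gave 23976 marked regions over 25.6 Mb, each of which fell in 1 of 7 classes. H3K27Ac with H3K4me3, the combination typical of active promoters, made up 7922 regions (33.0%) and 10.3 Mb. H3K27Ac alone, the combination typical of enhancers, made up 13022 regions (54.3%) and 13.0 Mb. H3K4me3 alone made up 2205 regions (9.20%) and 1.69 Mb, and H3K9me3 alone 820 regions (3.42%) and 0.633 Mb. The remaining classes held 7 regions in all: 4 with H3K27Ac and H3K9me3, 2 with H3K4me3 and H3K9me3, and 1 with every mark.

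**Figure D1:**
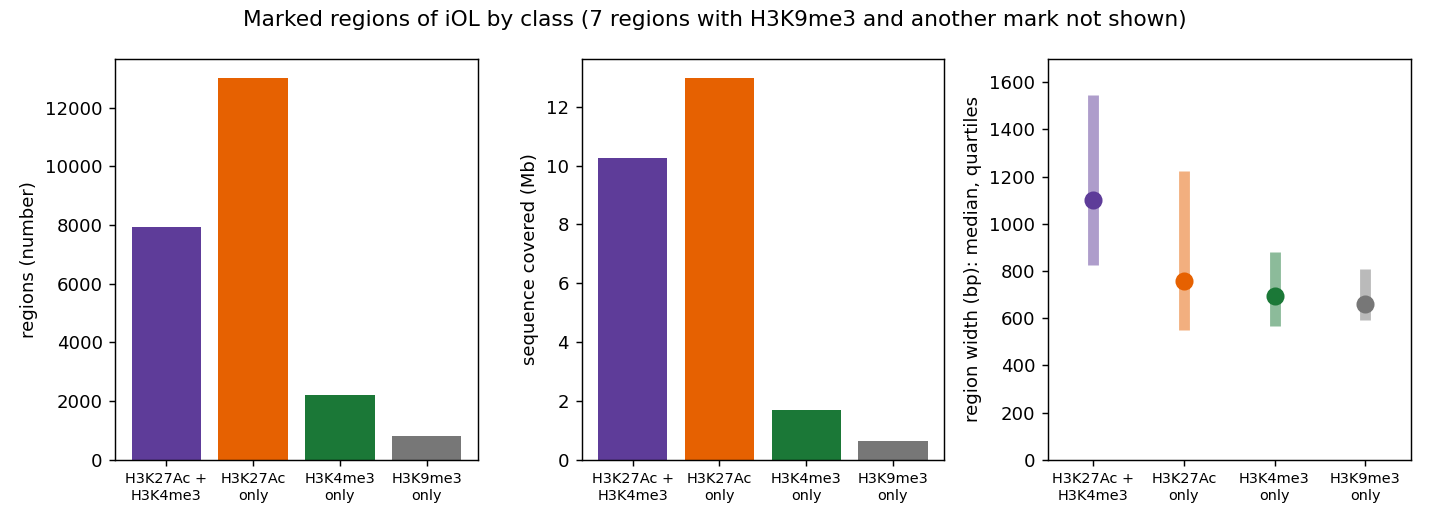
Number of marked regions of iOL (left), sequence they cover in Mb (middle) and region width in bp (right, point at the median, bar between the quartiles) for the 4 classes with more than 4 regions. The class with H3K27Ac alone has the most regions, 13022, and of these 4 the class with H3K27Ac and H3K4me3 has the widest, with a median of 1102 bp.

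Among the 4 classes with more than 4 regions, those with both active marks were the widest, with a median of 1102 bp (quartiles 826 and 1547). The medians were 757 bp (551 and 1223) for H3K27Ac alone, 692 bp (565 and 881) for H3K4me3 alone and 659 bp (591 and 807) for H3K9me3 alone. A joined region is at least as wide as each of its peaks, so the peaks themselves were also compared. H3K4me3 peaks had a median width of 923 bp (704 and 1262) with H3K27Ac and 692 bp without another mark. For H3K27Ac peaks the difference was small: 835 bp (617 and 1202) with H3K4me3 and 757 bp alone, a ratio of 1.10. That ratio turned to 0.992 when a gap of up to 1000 bp also counted as meeting, which moves 1583 peaks with a median width of 591 bp out of the H3K27Ac-only class. The upper quartiles were 1202 bp with H3K4me3 and 1223 bp alone, so wide acetylated peaks occurred in both classes.

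The widest region with both active marks was chr2:120971209-120984746, where 1 H3K27Ac peak met 2 H3K4me3 peaks over 13538 bp. It had 2 Olig2 peaks but neither RNAPII nor Brg1. At chr10:89519455-89530291 (10837 bp) 1 H3K27Ac peak met 2 H3K4me3, 2 RNAPII and 2 Olig2 peaks. The third, chr3:25643980-25654524 (10545 bp), had 1 H3K4me3, 2 Brg1 and 1 Olig2 peak and no RNAPII. In OPC the chr10 and chr3 regions were called as 4 and 5 separate H3K27Ac peaks, and in mOL each was met by 1. The widest region with H3K27Ac alone, chr13:74992050-75002776 (10727 bp), had 1 Brg1 and 2 Olig2 peaks and no RNAPII, and met 3 H3K27Ac peaks in OPC and 1 in mOL. H3K4me3 alone was never as broad: its widest peak was 2615 bp, at chr14:35414768-35417382. That peak met H3K27Ac in both OPC and mOL.

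Where the active marks met, they covered nearly the same stretch. Of the 7922 regions with both, 7065 (89.2%) consisted of 1 H3K27Ac and 1 H3K4me3 peak. In these pairs the centres of the peaks lay a median of 82.5 bp apart (quartiles 35.5 and 168), and 6103 pairs (86.4%) had centres within 250 bp. The H3K27Ac peak was the wider of the pair in 43.0% of cases, and the median ratio of its width to that of H3K4me3 was 0.954. Acetylation covered a median of 89.1% (quartiles 74.0 and 98.8) of an H3K4me3 peak that it met. Of the sequence in these regions 70.4% was under both marks, 14.7% under H3K27Ac alone and 14.9% under H3K4me3 alone.

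A smaller group of H3K4me3 peaks met more than 1 H3K27Ac peak. They numbered 595 with 2 H3K27Ac peaks and 22 with 3 or more, against 7643 with 1. The gap between the paired H3K27Ac peaks had a median of 89 bp (quartiles 47 and 139). Without reads, whether acetylation itself was interrupted in these gaps was not tested. These H3K4me3 peaks were wide, with a median of 1540 bp for those with 2 H3K27Ac peaks and 896 bp for those with 1. An RNAPII peak met 23.7% (20.3 to 27.3) of the first kind and 13.6% (12.8 to 14.3) of the second, and these shares move with the widths just given.

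RNAPII was found above all where the active marks met. Of 1425 RNAPII peaks, 1010 (70.9%, 68.4 to 73.2) met both H3K27Ac and H3K4me3. A further 230 (16.1%, 14.3 to 18.2) met H3K27Ac alone, 34 (2.39%, 1.66 to 3.32) met H3K4me3 alone, 1 met H3K9me3, and 150 (10.5%, 8.98 to 12.2) met no mark. At the 1010 peaks with both marks, the centre of the RNAPII peak was inside H3K27Ac in 84.0% and inside H3K4me3 in 81.1% of cases. The whole RNAPII peak was inside H3K27Ac in 27.3% and inside H3K4me3 in 23.1% of cases. H3K27Ac covered 82.4% and H3K4me3 75.3% of the RNAPII sequence there. RNAPII peaks were of similar width in the classes, with medians of 1042 bp with both marks, 1118 bp with H3K27Ac alone and 1042 bp with H3K4me3 alone.

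Seen from the marks, few places carried an RNAPII peak, and those with both active marks did so most often. RNAPII met 1562 of the 23976 marked regions (6.51%), 1587 of the 21589 H3K27Ac peaks (7.35%), 1247 of the 10467 H3K4me3 peaks (11.9%) and 1 of the 827 H3K9me3 peaks (0.121%). Among H3K27Ac peaks it was 1231 of 8562 with H3K4me3 (14.4%, 13.6 to 15.1) and 356 of 13022 alone (2.73%, 2.46 to 3.03). Among H3K4me3 peaks it was 1183 of 8259 with H3K27Ac (14.3%, 13.6 to 15.1) and 64 of 2205 alone (2.90%, 2.24 to 3.69). The intervals of the peaks with a single active mark overlap, whether that mark was H3K27Ac or H3K4me3. Among peaks with H3K9me3 alone it was 1 of 820 (0.122%, 0.00309 to 0.678). None of the 7 regions where H3K9me3 met another mark held RNAPII, too few to set a limit. By sequence, RNAPII peaks covered 10.2% of H3K27Ac peaks with H3K4me3 and 1.98% of those alone, and 9.55% of H3K4me3 peaks with H3K27Ac and 1.88% of those alone.

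Some RNAPII peaks at single-mark places reached into the other mark nearby. Of the 356 H3K27Ac-only peaks with RNAPII, 87 (24.4%) were met only by RNAPII peaks that also met H3K4me3. Leaving these out, 2.07% (1.83 to 2.32) of H3K27Ac-only peaks had an RNAPII peak free of H3K4me3. Of the 64 H3K4me3-only peaks with RNAPII, 31 (48.4%) were met only by RNAPII peaks that also met H3K27Ac, which left 1.50% (1.03 to 2.10).

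A wider peak has more room to meet another list, so RNAPII was also counted within quartiles of width. Acetylated H3K4me3 and H3K4me3-marked H3K27Ac had RNAPII more often in every quartile. Among H3K27Ac peaks of 187 to 575 bp, RNAPII met 8.08% (6.84 to 9.46) of those with H3K4me3 and 2.28% (1.82 to 2.81) of those without. Among those of 1213 to 13513 bp, it met 25.5% (23.7 to 27.5) with H3K4me3 and 4.13% (3.48 to 4.87) without. Among H3K4me3 peaks of 183 to 659 bp, it met 10.7% (9.27 to 12.3) with H3K27Ac and 2.69% (1.76 to 3.91) without. In the widest quartile, 1184 to 6481 bp, these were 21.1% (19.4 to 22.7) and 4.64% (2.14 to 8.62), the last from 194 peaks. For H3K27Ac with H3K4me3 the quartiles between had 9.41% and 13.7%, so the share was higher in each wider quartile. For H3K27Ac without H3K4me3 it stayed between 2.08% and 2.39% over the 3 narrower quartiles.

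**Figure D2:**
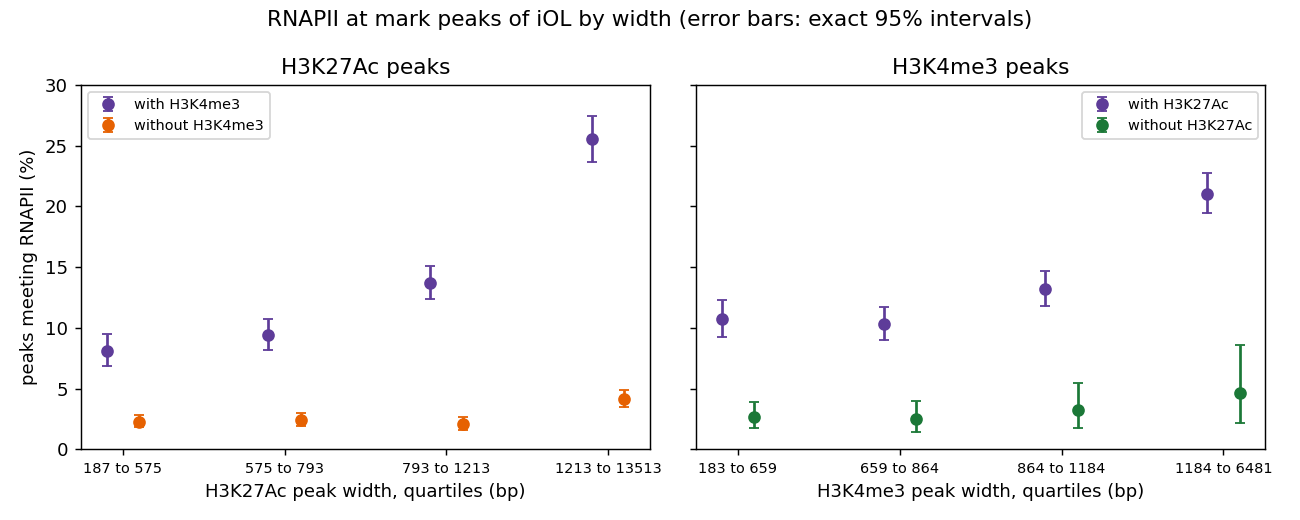
Share of H3K27Ac peaks (left) and H3K4me3 peaks (right) of iOL that met an RNAPII peak, in percent, by quartile of peak width in bp. Points split peaks with and without the other mark, and error bars are exact 95% intervals. In the widest H3K27Ac quartile RNAPII met 25.5% of peaks with H3K4me3 and 4.13% of those without.

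The share with RNAPII also followed how much of an H3K4me3 peak was acetylated. RNAPII met 19.1% (17.3 to 21.03) of the 1763 H3K4me3 peaks that were wholly acetylated. It met 15.5% (14.0 to 17.1) of those acetylated over more than 90% but not all of their sequence, and 12.2% (11.1 to 13.2) of those between 50 and 90%. It met 8.55% (6.18 to 11.5) of the 468 acetylated over at most 50%, and 2.90% (2.24 to 3.69) of the 2207 that met no H3K27Ac peak. Median H3K4me3 widths in the same order were 788, 931, 961, 1186 and 692 bp, so the peaks without acetylation were also the narrowest. The widths of the H3K27Ac peaks over these groups were not compared. RNAPII met 8.08% of the narrowest and 25.5% of the widest quartile of H3K27Ac peaks with H3K4me3. Whether the acetylated part matters apart from H3K27Ac width was not tested.

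H3K27Ac-only peaks lay at all distances from H3K4me3. The median distance to the nearest H3K4me3 peak, from edge to edge, was 41.8 kb (quartiles 8.99 and 125 kb). Of the 13022 peaks, 1583 (12.2%) lay within 1 kb, 988 (7.59%) at 1 to 5 kb, 2061 (15.8%) at 5 to 20 kb, 4551 (34.9%) at 20 to 100 kb and 3839 (29.5%) farther away. The farthest was a peak of 431 bp at chr14:52876334-52876764, 4445 kb from H3K4me3, which met a Brg1 peak. The next were a pair of peaks on the X chromosome, at chrX:116219692-116221282 and chrX:116218941-116219666, 3972 kb and 3971 kb away. Acetylated peaks without H3K4me3 had close acetylated neighbours, with a median gap to the next H3K27Ac peak of 2.70 kb (quartiles 0.166 and 22.2 kb). For H3K27Ac peaks with H3K4me3 this gap was 0.586 kb (0.168 and 16.9 kb).

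The peaks within 1 kb of H3K4me3 stood apart from those farther away in width and factors, and more of them met RNAPII. They had a median of 591 bp, against 777 to 810 bp in the 4 farther groups. RNAPII met 8.97% (7.61 to 10.5) of them and 3.54% (2.48 to 4.89) of those at 1 to 5 kb. At 5 to 20 kb, 20 to 100 kb and beyond 100 kb it met 2.13% (1.56 to 2.86), 1.63% (1.28 to 2.04) and 1.59% (1.22 to 2.04). These counts include the 87 of 356 peaks met only by RNAPII peaks that also met H3K4me3. Such peaks were not split by distance, so the RNAPII shares without them are not known. The neighbouring H3K4me3 peak was itself acetylated by another H3K27Ac peak in 1354 of 1583 cases (85.5%, 83.7 to 87.2), which did not set this group apart: the value was 88.6% at 1 to 5 kb, 86.8% at 5 to 20 kb, 82.0% at 20 to 100 kb and 77.6% beyond. In mOL, 83.8% (81.9 to 85.5) of these 1583 places met an H3K4me3 peak, and 27.1% (24.9 to 29.4) did in OPC. For peaks beyond 100 kb the values were 8.31% (7.46 to 9.23) in mOL and 2.03% (1.61 to 2.53) in OPC. The mOL H3K4me3 list is longer, with 17530 peaks, and its median width is 950 bp, where the iOL list has 864 bp, so a place beside an iOL peak can fall under a wider call there.

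Olig2 and Brg1 ran the other way. Olig2, a DNA-binding factor that specifies the oligodendrocyte lineage, met 8.43% (7.85 to 9.04) of H3K27Ac peaks with H3K4me3 and 53.7% (52.9 to 54.6) of those alone. Brg1, the motor subunit of BAF complexes that move nucleosomes, met 2.83% (2.49 to 3.20) of H3K27Ac peaks with H3K4me3 and 21.6% (20.9 to 22.3) of those alone. Over all 21589 H3K27Ac peaks, Olig2 met 35.8% (35.1 to 36.4) and Brg1 14.1% (13.7 to 14.6). Many factor peaks met no mark: 72.5% of the 25787 Olig2 and 50.4% of the 5465 Brg1 peaks. Within H3K27Ac-only peaks both factors became more frequent with distance. Olig2 met 10.3% (8.84 to 11.9) within 1 kb of H3K4me3, 43.7% (40.6 to 46.9) at 1 to 5 kb, 54.4% (52.3 to 56.6) at 5 to 20 kb, 60.3% (58.9 to 61.7) at 20 to 100 kb and 66.1% (64.5 to 67.6) beyond. Brg1 met 3.03% (2.24 to 4.00), 14.6% (12.4 to 16.9), 18.3% (16.7 to 20.1), 22.9% (21.7 to 24.2) and 31.1% (29.6 to 32.6) in the same order.

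**Figure D3:**
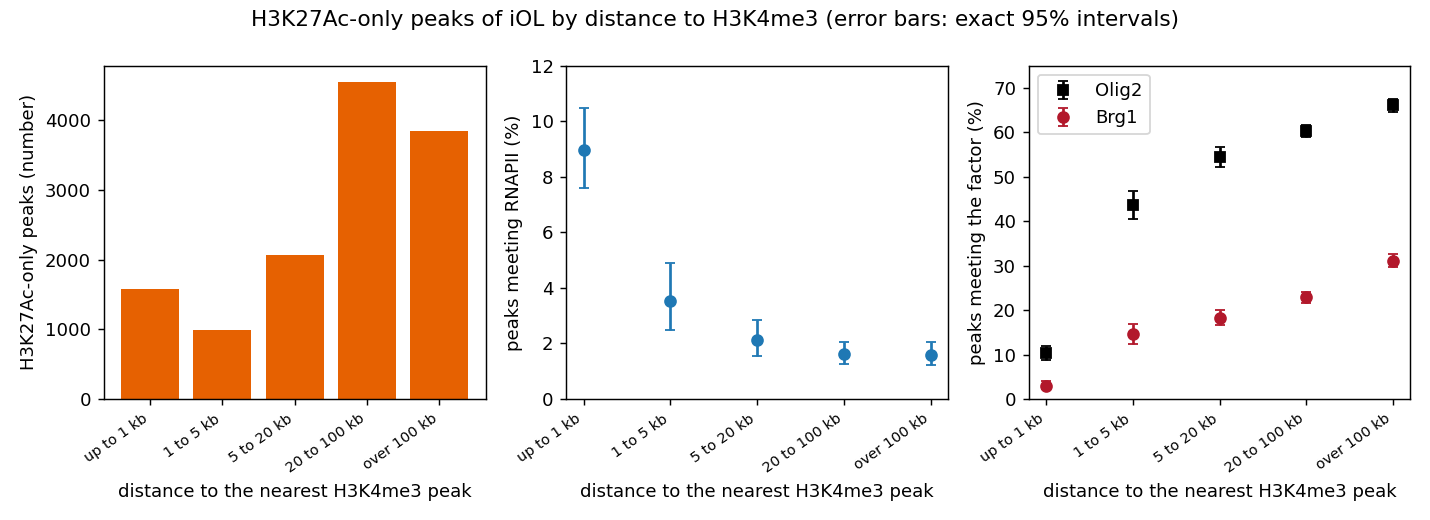
H3K27Ac-only peaks of iOL grouped by the distance to the nearest H3K4me3 peak: their number (left), the share in percent that met RNAPII (middle) and the share in percent that met Olig2 or Brg1 (right). Error bars are exact 95% intervals. RNAPII is highest within 1 kb, at 8.97%, and Olig2 and Brg1 are highest beyond 100 kb, at 66.1% and 31.1%. RNAPII peaks that also met H3K4me3 are counted.

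Among H3K27Ac-only peaks, the share with RNAPII was lower at those with a factor. RNAPII met 2.03% (1.54 to 2.62) of H3K27Ac-only peaks with Brg1 and 2.93% (2.61 to 3.27) of those without it, and these intervals just overlap. RNAPII met 1.96% (1.65 to 2.31) of those with Olig2 and 3.63% (3.18 to 4.14) of those without, with intervals apart. Where H3K27Ac peaks met H3K4me3, RNAPII met 16.6% (14.0 to 19.5) with Olig2 and 14.2% (13.4 to 15.0) without. For Brg1 these were 12.4% (8.52 to 17.2) and 14.4% (13.7 to 15.2), lower with Brg1 as among H3K27Ac-only peaks. Within both pairs with H3K4me3 the intervals overlap. The H3K27Ac-only peaks with a factor were the wider ones, with medians of 1079 bp with Brg1 and 702 bp without, and 946 bp with Olig2 and 637 bp without. They also lay farther from H3K4me3, at medians of 75.9 kb with Brg1 and 33.7 kb without it, and 60.1 kb with Olig2 and 22.0 kb without it. H3K27Ac-only peaks with RNAPII lay at a median of 5.44 kb from H3K4me3, and those without RNAPII at 42.8 kb. RNAPII peaks that also met H3K4me3 are counted here.

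Coverage around peak centres described the same lists and classes base by base, so it is no separate evidence. At the centre of acetylated H3K4me3 peaks, which were chosen for meeting H3K27Ac, 95.4% of positions were inside an H3K27Ac peak. There 10.1% were inside RNAPII, 4.98% inside Olig2 and 1.90% inside Brg1. RNAPII coverage was 4.07% at 1 kb and 0.890% at 2 kb from these centres. At the centre of H3K27Ac-only peaks, 42.4% of positions were inside Olig2, 19.3% inside Brg1 and 2.07% inside RNAPII. H3K4me3 coverage around H3K27Ac-only peaks, which is zero at the centre by the choice of peaks, reached 4.60% at 1 kb and was 1.53% at 5 kb. Around H3K4me3-only peaks, H3K27Ac coverage likewise reached 10.2% at 1 kb and was 1.25% at 5 kb.

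**Figure D4:**
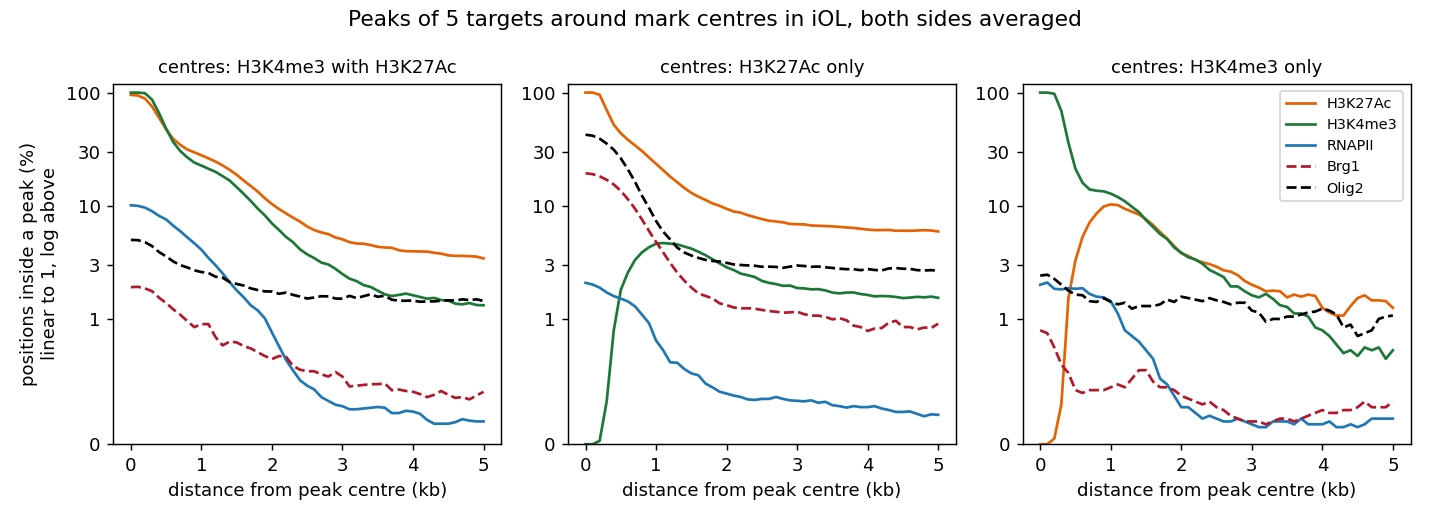
Percent of positions inside a peak of each of 5 targets against the distance in kb from the centre of acetylated H3K4me3 peaks (left), H3K27Ac-only peaks (middle) and H3K4me3-only peaks (right), with both sides averaged and a vertical axis that is linear up to 1 and logarithmic above. RNAPII covers 10.1% of the centres on the left and 2.07% in the middle, while Olig2 covers 4.98% and 42.4%.

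H3K4me3 peaks without another mark lay both near to and far from acetylation. Of the 2205 peaks, 647 (29.3%) lay within 1 kb of an H3K27Ac peak, 458 (20.8%) at 1 to 20 kb and 1100 (49.9%) farther away, with a median of 19.7 kb. RNAPII met 5.26% (3.67 to 7.27) of those within 1 kb, 2.18% (1.05 to 3.98) of those at 1 to 20 kb and 1.82% (1.11 to 2.79) of those beyond. These counts include the 31 of 64 peaks met only by RNAPII peaks that also met H3K27Ac. Such peaks were not split by distance, so the shares without them are not known. The H3K4me3-only peaks of the 3 distance groups were alike in width, with medians of 673, 701 and 706 bp. Within 1 kb of acetylation in iOL, 43.7% (39.9 to 47.7) met H3K27Ac in OPC and 76.2% (72.7 to 79.4) in mOL. At 1 to 20 kb these were 37.8% (33.3 to 42.4) and 73.4% (69.1 to 77.4), and beyond 20 kb they were 36.4% (33.5 to 39.3) and 65.7% (62.8 to 68.5). H3K4me3 itself was called again at most of the peaks beyond 20 kb, with 79.7% (77.2 to 82.1) meeting H3K4me3 in OPC and 97.4% (96.2 to 98.2) in mOL.

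The X chromosome had the largest share of H3K4me3 without H3K27Ac. In iOL 104 of the 294 H3K4me3 peaks on X met no H3K27Ac (35.4%, 29.9 to 41.1), against 2094 of 10124 on the autosomes (20.7%, 19.9 to 21.5), where single chromosomes ranged from 16.7 to 25.3%. Unacetylated peaks were of similar width on both, with medians of 703 bp on X and 692 bp on the autosomes. RNAPII met 4.08% (2.13 to 7.02) of the X peaks and 12.2% (11.6 to 12.9) of the autosomal ones. Among acetylated H3K4me3 peaks it met 6.32% (3.31 to 10.8) on X and 14.6% (13.8 to 15.4) on the autosomes. The share on X was 36.4% (31.3 to 41.7) in OPC, 35.4% in iOL and 34.3% (30.3 to 38.4) in mOL, while the autosomes together had 25.6% (24.8 to 26.4), 20.7% and 24.4% (23.7 to 25.02). The highest single autosome reached 32.0% in OPC, which is inside the interval of X, and 28.5% in mOL, which is not. X held 1.90% of all H3K27Ac and 2.81% of all H3K4me3 peaks of iOL. This comparison was added after the values by chromosome had been seen, and the read depth of single chromosomes was not analysed here.

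**Figure D5:**
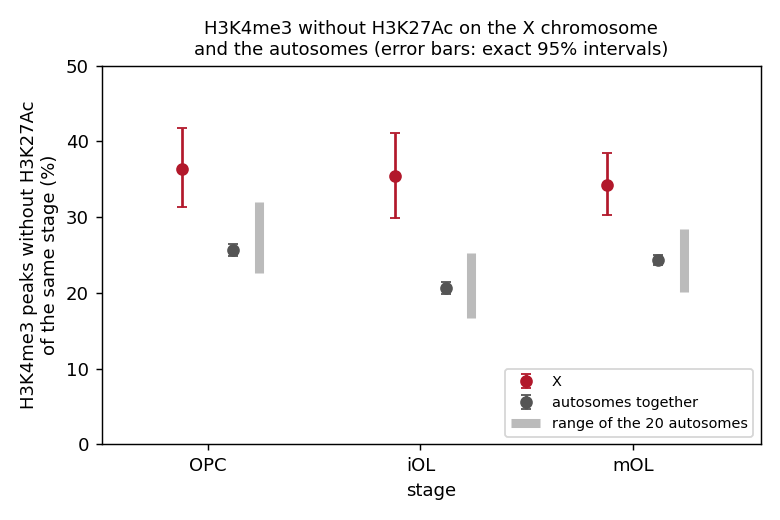
Percent of H3K4me3 peaks that met no H3K27Ac peak of the same stage, for the X chromosome, for all autosomes together and as the range over the 20 autosomes, in OPC, iOL and mOL. Error bars are exact 95% intervals. X lies at 36.4, 35.4 and 34.3%, and in iOL the highest autosome is at 25.3%.

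Most H3K9me3 peaks did not lie close to an active mark. The 820 peaks with H3K9me3 alone lay at a median of 80.5 kb (quartiles 24.8 and 302 kb) from H3K27Ac and 159 kb (39.7 and 465 kb) from H3K4me3. The same distance to RNAPII was 692 kb. Such distances also depend on how long the other list is: 21589 H3K27Ac, 10467 H3K4me3 and 1425 RNAPII peaks. They were not set against random places. Of the 820 peaks, 10 (1.22%) lay within 1 kb of H3K27Ac and 2 (0.244%) within 1 kb of H3K4me3. Some had a close neighbour of their own kind: 42 of the 827 H3K9me3 peaks (5.08%) had another within 1 kb, and 199 (24.1%) within 100 kb. How many would have one under random placement was not counted, so scattered and clustered peaks are not told apart here. Olig2 met 6 (0.732%, 0.269 to 1.59) and Brg1 1 (0.122%, 0.00309 to 0.678) of the 820. The widest was chr17:49608419-49612651 (4233 bp), which met none of the marks in OPC or mOL. H3K9me3 was called again at 27.6% (24.5 to 30.8) of these places in OPC and at 44.3% (40.8 to 47.7) in mOL.

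The few H3K9me3 peaks that met an active mark can be given in full. The only place with all 3 marks, chr2:193818848-193820617, had an H3K9me3 peak of 555 bp that shared 153 bp with H3K4me3 and 38 bp with H3K27Ac, so the marks met at its edge. At chr16:22268360-22269811 H3K9me3 and H3K27Ac shared 181 bp. That region also held a Brg1 and an Olig2 peak. At chr13:72809114-72809669 an H3K9me3 peak shared 376 bp with H3K27Ac. An H3K27Ac peak of 547 bp lay wholly inside H3K9me3 at chr11:34487882-34488686. At chr15:40043272-40044737 the marks shared 614 bp. This last place was 14.7 kb from chr15:40019266-40028591, the second widest peak with H3K27Ac alone (9326 bp), which met 2 H3K9me3 peaks in mOL. H3K4me3 shared 365 bp with H3K9me3 at chr20:30039386-30040384. At chr9:852707-854106 the H3K9me3 peak of 1314 bp lay wholly inside an H3K4me3 peak of 1400 bp. The single RNAPII peak that met H3K9me3 was on the same chromosome, 1010 bp wholly inside H3K9me3 at chr9:835788-837147, with 15.6 kb between these H3K9me3 peaks.

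RNAPII peaks without a mark were mostly remote from one. The 150 peaks lay at a median of 32.4 kb from H3K27Ac and 45.9 kb from H3K4me3, and 13 (8.67%) were within 1 kb of H3K27Ac and 9 (6.00%) within 1 kb of H3K4me3. Their median width was 998 bp. The widest RNAPII peaks of the list lay under active marks. The first, chr8:69443579-69449076 (5498 bp), met 2 H3K27Ac peaks and 1 H3K4me3 peak, as did the third, chr9:71389541-71393220 (3680 bp). The second, chr2:191304480-191308877 (4398 bp), met 1 H3K27Ac peak and no H3K4me3, neither in iOL nor in OPC or mOL.

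The classes of iOL were then looked up in the lists of the other stages. Most regions with both active marks had both there too: 85.3% (84.5 to 86.1) met both in OPC and 98.2% (97.9 to 98.5) in mOL. Regions with H3K27Ac alone met it again without H3K4me3 in 47.3% (46.5 to 48.2) of cases in OPC and 62.2% (61.4 to 63.1) in mOL, and met neither mark in 46.5% (45.7 to 47.4) and 17.0% (16.4 to 17.7). Regions with H3K4me3 alone had both marks in 34.2% (32.3 to 36.3) of cases in OPC and 70.2% (68.2 to 72.1) in mOL. The H3K27Ac lists of OPC, iOL and mOL hold 19130, 21589 and 35268 peaks, so shares found in mOL have the longest list to meet, and a change of state cannot be told apart from a more sensitive library.

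The same overlaps were counted within each stage. For OPC, iOL and mOL in turn, H3K27Ac met 74.0%, 78.9% and 75.3% of the H3K4me3 peaks. H3K4me3 met 47.2%, 39.7% and 40.7% of the H3K27Ac peaks, again from precursor to mature cell. H3K27Ac met 0.635% (0.388 to 0.979) of OPC, 0.605% of iOL and 2.42% (2.08 to 2.81) of mOL H3K9me3 peaks. The H3K9me3 lists of these stages hold 3149, 827 and 7103 peaks, and the H3K27Ac list is also longest in mOL. RNAPII of OPC, a list of 332 peaks, met 3.32% (2.96 to 3.71) of OPC H3K27Ac peaks with H3K4me3 and 0.624% (0.480 to 0.797) of those without, where iOL had 14.4% and 2.73%. No difference between stages was tested, as each rests on 1 library.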

How the data were processed

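The 17 samples are ChIP-seq libraries, 1 for each target and stage, assigned from their titles. Per the submitters' processing notes, MACS 1.4.0 and build rn4 were used. Aligner, thresholds, control library and pooling were not stated in these sources. Files deposited by the authors hold 3 columns without header (chromosome, start, end) and no score, so the values used are positions and widths. Read depth is unknown.

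Starts were made 1-based by adding 1. Overlap meant at least 1 bp. Peaks were classed by the marks they met, distances ran from edge to edge, and marked regions were joined overlapping peaks. Shares carry exact Clopper-Pearson 95% intervals for counting error only. Alternatives were an overlap of 50% of the shorter peak, gaps of up to 1000 bp, no unplaced sequence, the wider 50% of each mark list in place of a stricter threshold, and, added after seeing the data, the middle 200 bp of RNAPII peaks. Candidates for naming lay on placed chromosomes. They were the 3 widest regions of each class, the 3 H3K27Ac-only peaks farthest from H3K4me3 and the 3 widest RNAPII peaks. Not all of these candidates are named above. Every H3K9me3 peak that met H3K27Ac, H3K4me3 or RNAPII was also named, chosen after its values were seen. Members, classes and alternatives were chosen with earlier results of these data known. Python 3.11.15, numpy 2.4.6, scipy 1.17.1 and matplotlib 3.10.9 were used. Overlaps were tested on simulated lists, and 12 of 12 pairs of lists had equal counts in bedtools 2.31.1.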

Additional observations from a re-analysis of the deposited data

How the results depend on the processing

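No paired analysis was possible because each target and stage has 1 library. Leaving out unplaced sequence kept all 11 values inside their intervals. This setting took out only 90 of 21589 H3K27Ac and 49 of 10467 H3K4me3 peaks. It took out no H3K9me3 or RNAPII peaks, so it could change little. With at least 50% of the shorter peak in common, H3K27Ac peaks met H3K4me3 in 38.8% of cases, RNAPII met 11.7% of H3K27Ac peaks with H3K4me3, 2.41% of H3K27Ac-only and 2.06% of H3K4me3-only peaks, and 0 of 827 H3K9me3 peaks met both other marks (3 counts would give 0.363%). With gaps of up to 1000 bp counted, H3K27Ac peaks met H3K4me3 in 47.0%, H3K4me3 peaks met H3K27Ac in 85.1% and H3K9me3 peaks met H3K27Ac in 1.93% of cases. RNAPII then met 16.6% of H3K27Ac peaks with H3K4me3 and 2.23% of H3K27Ac-only peaks, the median distance to H3K4me3 was 53.9 kb, and the width ratio turned to 0.992. With the wider 50% of each mark list, H3K27Ac peaks met H3K4me3 in 32.9% and H3K4me3 peaks met H3K27Ac in 67.0% of cases. RNAPII then met 20.0% of H3K27Ac peaks with H3K4me3, 5.14% of H3K27Ac-only and 7.83% of H3K4me3-only peaks. The median distance was 63.9 kb, the width ratio 1.04, and 0 H3K9me3 peaks met both marks. In that setting a peak counts as single when its partner was among the narrower 50%. With the middle 200 bp of RNAPII peaks, RNAPII met 11.2% of H3K27Ac peaks with H3K4me3, 1.95% of H3K27Ac-only and 1.81% of H3K4me3-only peaks. Under each of these settings RNAPII met H3K27Ac peaks with H3K4me3 more often than H3K27Ac-only or H3K4me3-only peaks. Depth is unknown and limits every statement that a place was not called, above all for the short H3K9me3 and RNAPII lists.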
